A study of Mus musculus with 4 samples.

Results

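Pi16+ fibroblasts (FB) of the mouse intestinal lamina propria (LP) were chosen by the transcripts detected in single cells, and 1983 of 32216 quality-passing cells (6.16%) met the rule. A cell was chosen if it held at least 1 UMI (unique molecular identifier, 1 per captured transcript) of Pi16, a UMI of at least 1 of the partner genes Dpp4, Scara5, Mfap5 and Npy1r, and UMIs of at most 1 of Sox6, F3, Foxl1 and Bmp7, which mark PDGFRαhi FB beneath the epithelium. Small intestine replicates 1 and 2 gave 110 and 456 cells, and colon replicates 1 and 2 gave 98 and 1319, so that 66.5% of the cells came from colon replicate 2. They were compared with 29170 other cells that held a UMI of the collagen gene Col1a2 and, among these, with 1685 Pi16-negative cells holding both Ackr4 and Grem1, the CD81+ FB most like them.

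The study surveyed mesenchymal stromal cells (MSC) of small intestine and colon in untreated female C57BL6/Nrj mice aged 8 to 10 weeks, in 2 experiments of 3 pooled mice. The outer muscle layer was removed, and live cells lacking CD45, Ter119, CD31, BP3, EpCAM and L1CAM and carrying Itgb1 were sorted, a gate set against blood, endothelial, epithelial and glial cells. Each intestine had 2 libraries. Between 14341443 and 52269372 UMIs were counted per library, and the chosen cells held 1082826, 1621586, 830150 and 5909341 UMIs. Values of the 4 libraries are given throughout in the order small intestine replicates 1 and 2, then colon replicates 1 and 2. Tests over 2 libraries against 2 measure the spread between these pools only.

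Fibroblasts that express Pi16, a secreted peptidase inhibitor, are found in many organs, where they lie in the adventitia around larger vessels and in fascia and have been described as a progenitor-like state. They are known for a loose, fibre-rich matrix and for surface proteins such as CD34, Ly6C and the complement-restraining CD55. In the gut, FB that express CD81, the scavenging chemokine receptor Ackr4 and the BMP antagonist Grem1 lie below the crypts and support epithelial stem cells.

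The gate rested mainly on Mfap5, a microfibril-associated glycoprotein of elastic fibres. Of the chosen cells, 1909 (96.3%) held Mfap5, 1087 (54.8%) the ferritin receptor Scara5, 377 (19.0%) the neuropeptide Y receptor Npy1r and 59 (2.98%) the surface peptidase Dpp4. Mfap5 was the only partner detected in 793 cells. Of all 2227 cells with a Pi16 UMI, 89.0% were chosen. The Pi16 gene lies on chromosome 17 from 29317680 to 29330593 on the plus strand (GRCm38/mm10).

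Markers that had no part in the choice were present. Cd55 was detected in 86.4%, 81.1%, 96.9% and 91.8% of the chosen cells and in 49.6%, 48.9%, 37.4% and 42.2% of the other Col1a2+ cells. Cd81 was detected in 78.2%, 55.3%, 78.6% and 81.3% of the chosen cells against 18.1%, 13.1%, 20% and 21.1% of the others, and Cd34 in 91.4% to 100% against 46.9% to 73.7%. Each of the 3 markers was more often detected in the chosen cells of every library, whose median depths were 9863.5, 3404.5, 8196 and 4407 UMIs against 7954, 2777, 9352.5 and 3903.5 in the other cells. Endothelial cells remained after the sort, mainly in the replicate 1 libraries. Among them Pi16 was found in 1.12% of 268, in 0 of 1, in 0.913% of 219 and in 0 of 20, and Cd55 in 13.8%, 0%, 13.2% and 15%, whereas Cd81 was found in 90.3%, 100%, 92.2% and 90% and Cd34 in 67.2%, 100%, 75.8% and 85%, at median depths of 4836.5, 3067, 5694 and 5962.5 UMIs. Cd81 and Cd34 therefore do not set the chosen cells apart from endothelium. The position of the cells around vessels was not measured.

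Transcripts of other cell types were present at differing levels. The mesothelial genes Msln, Upk3b and Lrrn4 had no UMI in any of the 1983 cells, which allows a share of up to 0.151% of cells with a UMI, not of cells expressing the gene (3 counts, counting error only), whereas Wt1 was found in 2.58% of the chosen cells of colon replicate 2. Ptprc, Pecam1 and Epcam were found in at most 0.909%, 2.04% and 0.0758% of the chosen cells of any library. The summed level of 10 smooth muscle genes was 140.4, 379, 202 and 574 CPM (UMIs scaled to the same total in each sum of cells) in the chosen cells against 4700.0, 1412, 9366 and 3781 CPM in the others. The 10 pericyte genes summed to 147, 228, 30.1 and 58 CPM against 1118, 783, 537 and 194 CPM. The pericyte gene Rgs5 was found in 38.2%, 28.1%, 1.02% and 2.12% of the chosen cells, with the higher shares in small intestine. It was found in 73.8%, 63%, 19.2% and 8.01% of the other Col1a2+ cells. In the Ackr4+Grem1+ cells its shares were 82.4%, 63.6%, 6.12% and 2.62%, so Rgs5 was not limited to pericytes by this measure. The plasma cell gene Jchain was found in 10%, 1.32%, 2.04% and 0.607% of the chosen cells. The summed level of 6 plasma cell genes was 30.5, 43.2, 7.23 and 13.9 CPM, and that of 10 endothelial genes 169, 62.3, 143 and 86.8 CPM against 118, 31.3, 115 and 43.2 CPM in the others. The 12 mesothelial genes, 8 of them at 0, summed to 19.4, 8.63, 13.3 and 14.9 CPM against 8.91, 6.61, 12.9 and 10.7 CPM. The endothelial and mesothelial sums were higher in the chosen cells in all 4 libraries, and their part in the results was not tested. Replicate 2 libraries held more smooth muscle transcripts in the chosen cells than replicate 1 libraries of the same intestine. Barcodes scored as likely doublets made up 173 (8.72%) of the chosen cells and 3419 of all 32216 quality-passing cells. By library they were 2.73%, 11.4%, 0% and 8.95% of the chosen cells. Of all quality-passing cells they were 2.02%, 13.3%, 2.06% and 10.3%, which the expected rate had set. Small intestine replicate 2 and colon replicate 2 shared 69 barcodes, 2 of them chosen cells, small intestine replicate 1 and colon replicate 1 shared 8, and other pairs shared at most 2.

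Pi16+ FB were found in both intestines, with no difference in their share beyond the spread between libraries. They made up 8.11% (exact binomial 95% interval 6.71 to 9.70) and 3.01% (2.74 to 3.29) of Col1a2+ cells in small intestine, and 4.46% (3.62 to 5.42) and 10.5% (10.0 to 11.1) in colon. The means were 5.56% ± 3.61 and 7.5% ± 4.30 (SD, n = 2), and the ranges overlapped (two-sided exact permutation p = 0.667, where 2 against 2 libraries cannot go below 0.33). The order of the intestines turned without small intestine replicate 2 or without colon replicate 2, where colon was 0.614 and 1.10 percentage points below small intestine. Detection depends on depth. When each cell was reduced at random to 1000 UMIs, the shares were 2.07%, 1.01%, 2.04% and 5.11%, which placed small intestine replicate 1 beside colon replicate 1 and left colon replicate 2 highest.

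**Figure D1:**
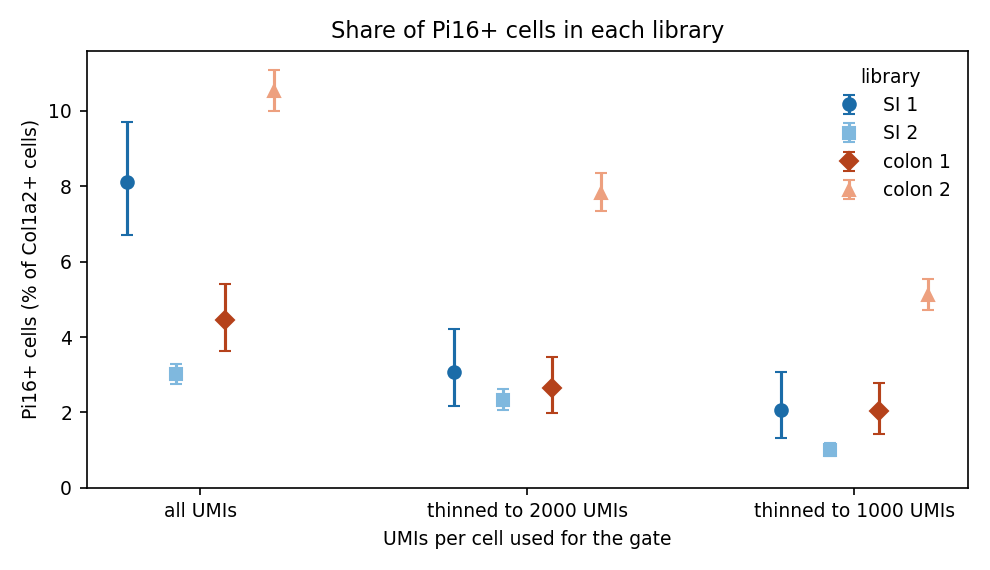
Share of Pi16+ FB among Col1a2+ cells (y axis, percent) in each of the 4 libraries, using all UMIs or after thinning each cell to 2000 or 1000 UMIs (x axis). Points are shares and bars are exact binomial 95% intervals, which cover counting error only. Colon replicate 2 is highest at each depth, at 10.5% with all UMIs, and the libraries of the same intestine differ by more than their intervals with all UMIs.

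Ackr4 and Grem1, genes of CD81+ FB, divided the chosen cells, though the study also found Grem1 in colonic Fgfr2+ and CD90+ FB. Both genes were detected in 57.3%, 27.9%, 20.4% and 5.91% of the chosen cells, and neither in 19.1%, 31.1%, 37.8% and 55.5%. In the other Col1a2+ cells, both were detected in 14.9%, 8.19%, 2.43% and 2.47% and neither in 56.4%, 62.5%, 73.7% and 71.7%. Grem1 alone or with Ackr4 was detected in 69.1%, 54.6%, 37.8% and 22.2% of the chosen cells. The others held it in 40.2%, 35.3%, 25.7% and 26.2%, so it was not more frequent in the chosen cells of colon replicate 2. Among the chosen cells and among the others, both colon libraries held a smaller share of double-positive cells and a larger share of double-negative cells than both small intestinal libraries. After thinning to 1000 UMIs per cell, Ackr4 was found in 21.8%, 20%, 15.3% and 7.96% and Grem1 in 34.5%, 30.7%, 15.3% and 11.4%, so the intestines still did not overlap. On the level scale, Ackr4 stood at 288, 212, 201 and 111 CPM and Grem1 at 526, 537, 478 and 216 CPM in the chosen cells. Neither level was called between intestines (edgeR quasi-likelihood test with Benjamini-Hochberg adjustment over all genes, adjusted p = 0.784 and 0.877, n = 2 libraries each).

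**Figure D2:**
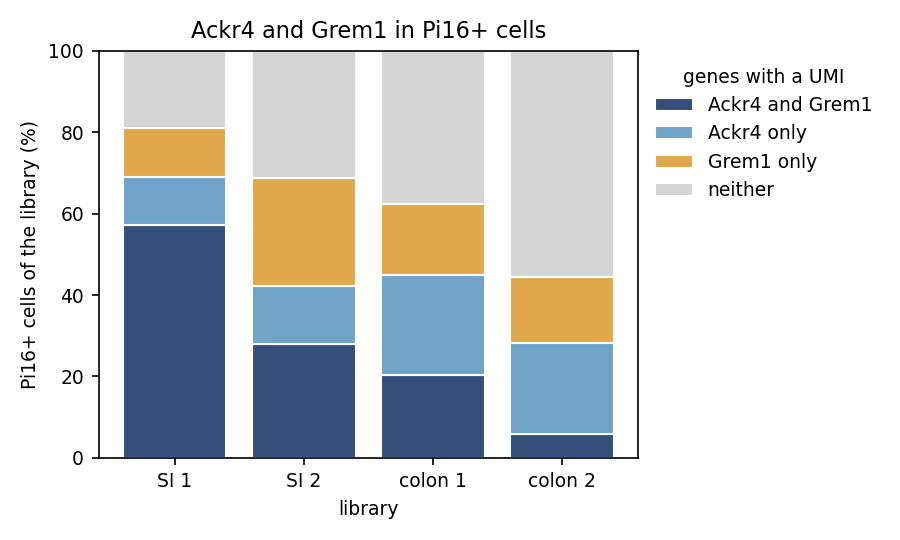
Percent of the Pi16+ FB of each library (y axis) with a UMI of both Ackr4 and Grem1, of Ackr4 only, of Grem1 only or of neither, stacked to 100, for the 4 libraries (x axis). The double-positive part falls from 57.3% and 27.9% in the small intestinal libraries to 20.4% and 5.91% in the colonic ones, and the share with neither gene is highest in colon replicate 2 at 55.5%.

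Cells farther inside the gate had higher levels of Igfbp6, Cd55, Pcolce2 and Ebf1 in all 4 libraries. The 1238 cells with 2 or more Pi16 UMIs held Igfbp6 at 715, 1009.8, 1655 and 1961 CPM, and the 745 cells with a single UMI at 458, 622, 888 and 1325 CPM. Adamdec1, a metalloprotease gene of LP fibroblasts, ran the other way, at 597, 987, 49.5 and 241 CPM against 1867, 1543, 504 and 376 CPM. The 684 cells with Ackr4 held Adamdec1 at 214, 693, 0 and 237 CPM, and the 1299 without it at 3253, 1783, 361 and 298 CPM, and its level was thus highest in small intestinal cells without Ackr4. Just outside the gate, the 150 cells with Pi16 and no partner held Igfbp6 at 134, 377, 324 and 835 CPM. The 1672 cells with 2 or more partners and no Pi16 UMI held it at 247, 316, 627 and 929 CPM. Both groups were below the chosen cells in all 4 libraries, and these values describe the gate, so no test was made.

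Against the other Col1a2+ cells, the chosen cells had higher levels of Igfbp6, Pcolce2, Has1, complement C3, the chemokines Ccl2 and Ccl7 and the transcription factor Ebf1, and lower levels of contractile, PDGFRαhi FB and retinoic acid genes. A gene was counted as higher or lower where it lay on the same side in all 4 libraries with a mean ratio over 2-fold (log2 ratio of CPM with a pseudocount of 10). By this measure 89 of 8271 genes (1.08%) were higher and 267 (3.23%) lower, and the median of all genes was -0.12. Because transcripts of the same cells chose them, this is a description without a test.

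Of the 23 measured genes of a list known from Pi16+ FB of other organs, 13 were higher and 1, Procr, was lower, with a median log2 ratio of 1.29. Igfbp6, an insulin-like growth factor binding protein, stood at 598, 797, 1448 and 1782 CPM in the chosen cells and at 106, 108, 215 and 399 CPM in the others (log2 ratio 2.50 ± 0.29, SD over 4 libraries). Cd55 stood at 414, 712, 912 and 1192 CPM against 191, 335, 133 and 315 CPM (1.68 ± 0.78). In the chosen cells both genes were highest in the colonic libraries, and the chosen cells exceeded the others in each library. Cd248, the endosialin gene of perivascular stroma, stood at 513, 508, 952 and 576 CPM against 209, 181, 173 and 138 CPM (1.77 ± 0.52).

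Among the 15 genes with the highest ratios was Has1, a synthase of the matrix sugar hyaluronan. It stood at 1523, 880.0, 2677 and 1774 CPM in the chosen cells and at 427, 311, 153 and 321 CPM in the others (log2 ratio 2.44 ± 1.14). Gfpt2 and Ugdh, which act in the synthesis of sugar precursors, had log2 ratios of 2.45 ± 0.70 and 1.93 ± 0.52. The highest mean ratio was that of Pcolce2, an enhancer of procollagen processing, at 499, 521, 625 and 597 CPM against 117, 133, 24.2 and 72.3 CPM (2.75 ± 1.07). Its level in the chosen cells varied little between libraries, whereas the level in the other cells was lowest in colon.

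Collagen and elastic fibre genes passed in both directions, where 1.08% of all genes were higher and 3.23% lower. Of 18 collagens, 2 were higher (Col8a1 and Col14a1) and 3 lower (Col6a5, Col12a1 and Col18a1), with a median log2 ratio of -0.08. Of 15 elastic fibre genes, 3 were higher and 1 lower, with a median of 0.02. Fbn1, the main microfibril protein, reached 602, 1049, 778 and 1307 CPM against 372, 626, 229 and 411 CPM (1.20 ± 0.56), and Emilin1 was lower (-1.29 ± 0.37). None of 7 small leucine-rich proteoglycans passed in either direction. The summed level of all 9 on that list was 29546, 30040, 22543 and 20505 CPM in the chosen cells against 20052, 21285, 12812 and 12760 CPM in the others. The 17 elastic fibre genes summed to 8955, 8173, 7897 and 7354 CPM against 8104, 7481, 6185 and 5203 CPM. The sum of the 19 collagens was lower in colon replicate 1 only, at 15596 against 16247 CPM.

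Immune genes were divided by kind. C3, the central complement component, stood at 3773, 3117, 1336 and 1192 CPM in the chosen cells against 1632, 1611, 130.4 and 202 CPM in the others (log2 ratio 1.98 ± 1.09). Of 12 complement genes, none was lower. The monocyte chemokines Ccl2 and Ccl7 had log2 ratios of 1.68 ± 1.08 and 2.01 ± 0.47, while Cxcl5, Cxcl9, Cxcl12, Cxcl13 and Cxcl14 were lower among the 15 chemokine and scavenger genes. Il33, an alarmin cytokine, stood at 172, 263, 201 and 189 CPM against 137, 142, 24.8 and 32.7 CPM, a gap that was narrow in small intestine and wide in colon. Of 20 interferon response genes, 2 were lower and none higher.

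WNT and BMP pathway genes that passed were mostly lower, where 1.08% of all genes were higher and 3.23% lower. Of 22 such genes, the WNT antagonist Sfrp4 was higher and 6 were lower (Wnt4, Wnt5a, Bmp3, Bmp4, Bmp5 and Dkk3), with a median of -0.59. Of 10 vitamin A genes, 5 were lower, among them the retinaldehyde dehydrogenases Aldh1a1, Aldh1a2 and Aldh1a3. Of 13 regional transcription factors, Ebf1, a factor of mesenchymal and adipogenic lineages, was higher, at 202, 195, 631 and 565 CPM against 94.6, 47.2, 65.7 and 64.1 CPM (2.23 ± 0.98), and Tbx2, Tbx3, Tcf21 and Tcf4 were lower. All 9 measured PDGFRαhi FB genes were lower, and so were 9 of 10 smooth muscle genes, with Acta2 at -4.02 ± 1.90. The rule itself limited PDGFRαhi FB genes.

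**Figure D3:**
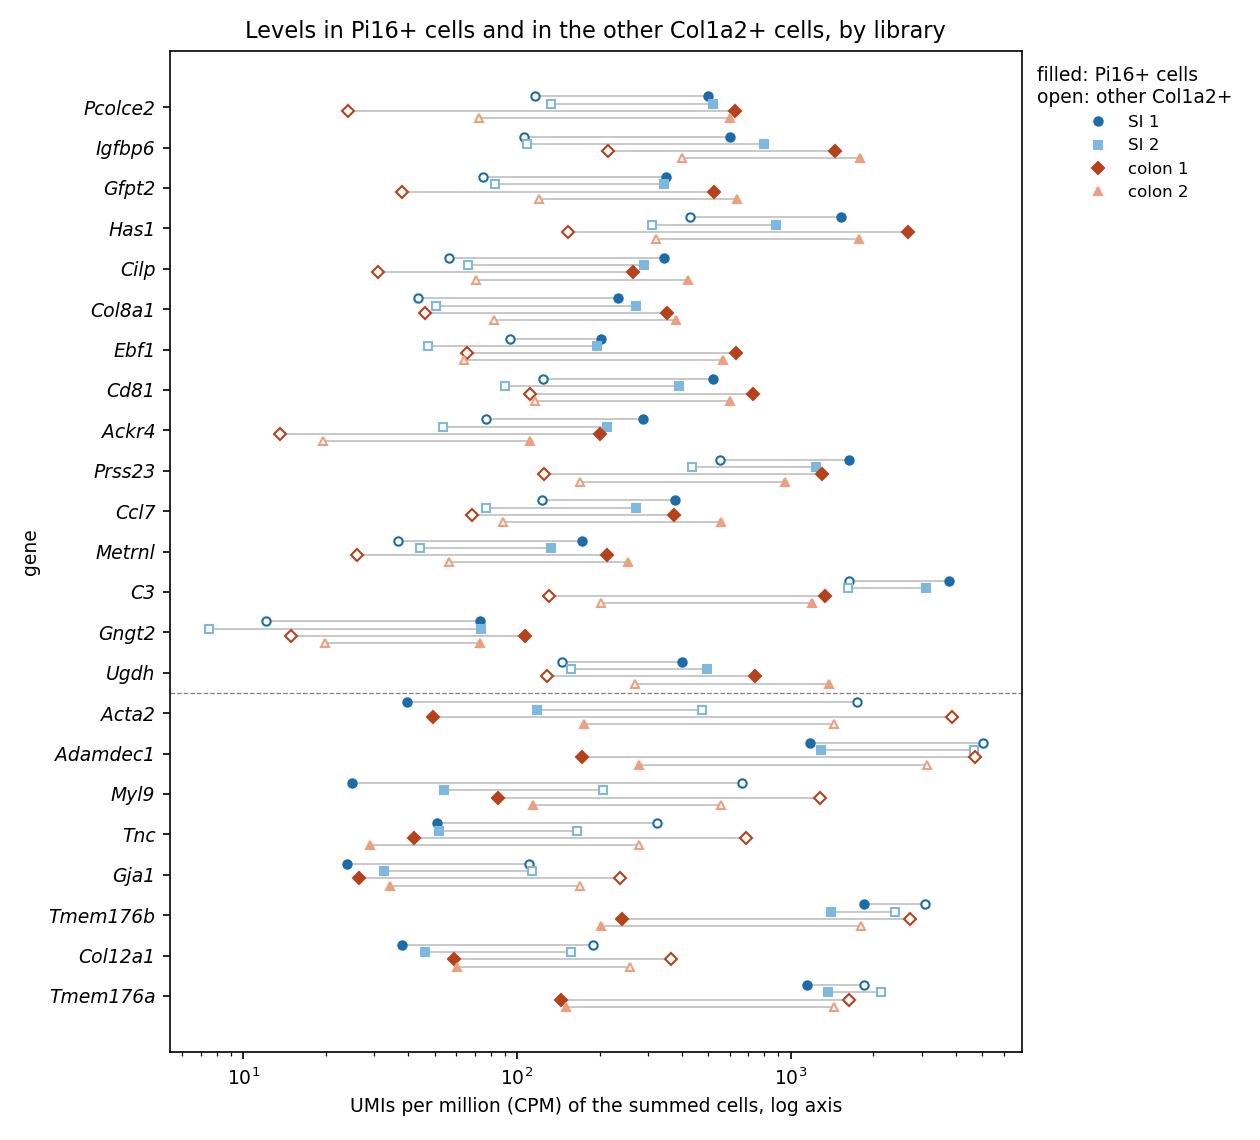
Level in CPM on a log axis (x) of the 15 genes with the highest and, below the dashed line, the 8 with the lowest mean ratio (y axis), in the summed Pi16+ FB (filled) and in the other Col1a2+ cells (open) of each library, joined by a line. Filled symbols lie to the right of open ones in all 4 libraries above the line, as for Pcolce2 at 625 against 24.2 CPM in colon replicate 1, and to the left below it.

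Set beside the Pi16-negative Ackr4+Grem1+ cells, the chosen cells were close in several of these genes, and 29 of 7934 genes (0.366%) were higher and 22 (0.277%) lower. Cd81 stood at 519.9, 389, 729 and 600.4 CPM in the chosen cells and at 458, 374, 801 and 590.5 CPM in the Ackr4+Grem1+ cells (log2 ratio 0.03 ± 0.13). C3 was equally close, at 0.01 ± 0.22. Of the 23 Pi16+ FB genes, 10 were still higher and none lower, with a median of 0.94 against 0.00 over all genes. Cd55 was 1.31 ± 0.12 higher on the log2 scale. Anxa3, which codes for an annexin, stood at 56.3, 58.6, 220.4 and 171 CPM against 5.06, 8.29, 55.3 and 94.4 CPM (1.67 ± 0.60). Igfbp5 was 1.79 ± 0.50 higher, and Apoe, the lipid carrier, was lower at 617, 530.3, 142 and 111 CPM against 1386, 1591, 467 and 448 CPM (-1.57 ± 0.31). Chosen cells and Ackr4+Grem1+ cells were thus close in Cd81 and C3 and apart in Cd55 and Apoe in every library. The Ackr4+Grem1+ cells numbered 49 in colon replicate 1, which limits the precision of its values.

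Between intestines, the chosen cells differed in Hox genes, in Wnt2 and Dkk2, in Lrat and Cyp1b1 and in complement C4b. Of 8960 genes tested, 37 (0.413%) passed an adjusted p of 0.05 and a log2 fold change of 1.5 (quasi-likelihood test of edgeR with Benjamini-Hochberg adjustment over all genes), 8 (0.0893%) higher in colon and 29 (0.324%) lower. The number depends on the libraries and the fit. With the replicate number as a block it was 254 (2.83%), 84 higher (0.938%) and 170 lower (1.9%). It was 14 without likely doublets, and 84, 136, 97 and 13 without small intestine replicate 1, small intestine replicate 2, colon replicate 1 and colon replicate 2. In all 14 other settings that were tried, 6 of the 37 genes kept an adjusted p under 0.05: Hoxa10, Wnt2, Ctgf, Lrat, Cyp1b1 and Piezo2, chosen for this after their values were seen.

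Hox genes encode position along the body axis. Of 15 tested, 1 was higher in colon and 3 were lower. Hoxa10 (chromosome 6, 52231197 to 52240854, minus strand) stood at 0, 0, 38.5 and 33.2 CPM, with 0 UMIs in small intestine and 228 in colon, and was at least 30.5-fold higher in colon (against 3 counts over the small intestinal cells, adjusted p = 0.0346). Hoxc8 (chromosome 15, 102990607 to 102994111, plus strand) ran the other way at 35.1, 35.2, 0 and 0.169 CPM, with 95 UMIs in small intestine and 1 in colon, a ratio of 237 (41.5 to 9448, counting error only, adjusted p = 0.0196). Hoxc4 and Hoxc6 were also lower in colon, with ratios of 63.5 (16.7 to 539) and 39.9 (12.9 to 200.1) in favour of small intestine, but their adjusted p was under 0.05 in only 9 of 12 and 8 of 14 other settings. The transcription factor Pitx1, known from hindgut and hindlimb, stood at 4.62, 9.87, 90.3 and 113 CPM (log2 fold change 3.69 ± 0.41, SE, adjusted p = 0.0346). The groups did not overlap for any of these genes, which is no further support because they were named as called. The same genes had the same direction in the other Col1a2+ cells, where Hoxa10 stood at 0, 0, 76.7 and 55.8 CPM and Hoxc8 at 49.3, 38.2, 0.409 and 0.576 CPM.

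The secreted factors Wnt2, Ctgf, Dkk2 and Sfrp1 also differed. Wnt2, a canonical WNT ligand (chromosome 6, 17988940 to 18030585, minus strand), stood at 3.69, 3.7, 50.6 and 52.6 CPM in the chosen cells (log2 fold change 3.72 ± 0.39, adjusted p = 0.0346), and was the only 1 of 23 tested Pi16+ FB genes to pass without a block. Ctgf, a matrix-associated growth factor, stood at 28.6, 36.4, 345 and 239 CPM (3.08 ± 0.34, adjusted p = 0.0346). Dkk2, a WNT antagonist, was lower in colon at 52.6, 43.8, 1.2 and 0.677 CPM (-5.97 ± 0.50, adjusted p = 0.0196), and Sfrp1, another, at 1446, 1851, 260.2 and 337 CPM (-2.54 ± 0.33, adjusted p = 0.042). The libraries of the 2 intestines did not overlap for these 4 genes, which were likewise named as called. Of 23 WNT and BMP genes tested, Wnt2, Sfrp1 and Dkk2 passed without a block. With the replicate number as a block, 4 were higher and 4 lower, adding Rspo2, Rspo3, Wnt4, Sfrp2 and Sfrp4.

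Lrat, Cyp1b1, C4b, H2-Q6 and H2-Q7 were lower in colon. Lrat (chromosome 3, 82892579 to 82903973, minus strand), which esterifies retinol for storage, stood at 83.1, 113, 1.2 and 0.846 CPM (log2 fold change -6.76 ± 0.45, adjusted p = 0.0178). Cyp1b1, a cytochrome P450 gene whose enzyme can oxidise retinol, stood at 51.7, 40.1, 0 and 0.338 CPM, 121 UMIs against 2 (ratio 151 in favour of small intestine, 40.8 to 1259, adjusted p = 0.0196). Of 11 vitamin A genes tested, these 2 were called without a block. Complement C4b (chromosome 17, 34728380 to 34743882, minus strand) stood at 1343, 1052, 123 and 73.8 CPM (-3.71 ± 0.41, adjusted p = 0.0346), and was the only 1 of 12 complement genes called in the fit without a block, though reads of its near-identical copy C4a may be counted with it. C3 stood at 3773, 3117, 1336 and 1192 CPM and was not called by edgeR without a block (-1.53 ± 0.32, adjusted p = 0.141). With the replicate number as a block, C3 was called, as were C2, C7 and Cfb. The class I genes H2-Q6 and H2-Q7 had log2 fold changes of -5.33 ± 0.61 and -5.16 ± 0.54, and as near-identical copies they may share reads. Of 19 interferon response genes, Ifi47 and the immunoproteasome gene Psmb9 were lower and none higher, with a median of -1.74 against 0.02 over all genes tested.

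Collagens (0 of 17), elastic fibre genes (0 of 15) and chemokines (0 of 13) had no called gene between intestines by edgeR without a block. With 0.413% of all genes called, lists of this size hold too few genes to read this as a result. Over all genes, 661 had an unadjusted p under 0.05 and DESeq2 called 131. Igfbp6 stood at 598, 797, 1448 and 1782 CPM and did not pass in edgeR (1.14 ± 0.31, adjusted p = 0.305). Dpp4, which helped to choose the cells, held 3 UMIs in small intestine and 67 in colon, a ratio of 8.96 (2.94 to 44.6) given without a test. The study treated colon with dithiothreitol and stirred it during digestion, while small intestine was shaken, so preparation and intestine cannot be told apart. Immediate early genes and mitochondrial share, which can respond to handling, also moved with the intestine. The summed level of 16 immediate early genes was 31166, 36929, 57559.5 and 54447 CPM, with none of the 16 called, and the median mitochondrial share was 2.24%, 2.46%, 1.78% and 1.81%. The stress-response gene Ddit3 was higher in colon at 44.3, 53.7, 248 and 422 CPM (2.70 ± 0.37, adjusted p = 0.0486). Their part in the differences between intestines was not tested.

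**Figure D4:**
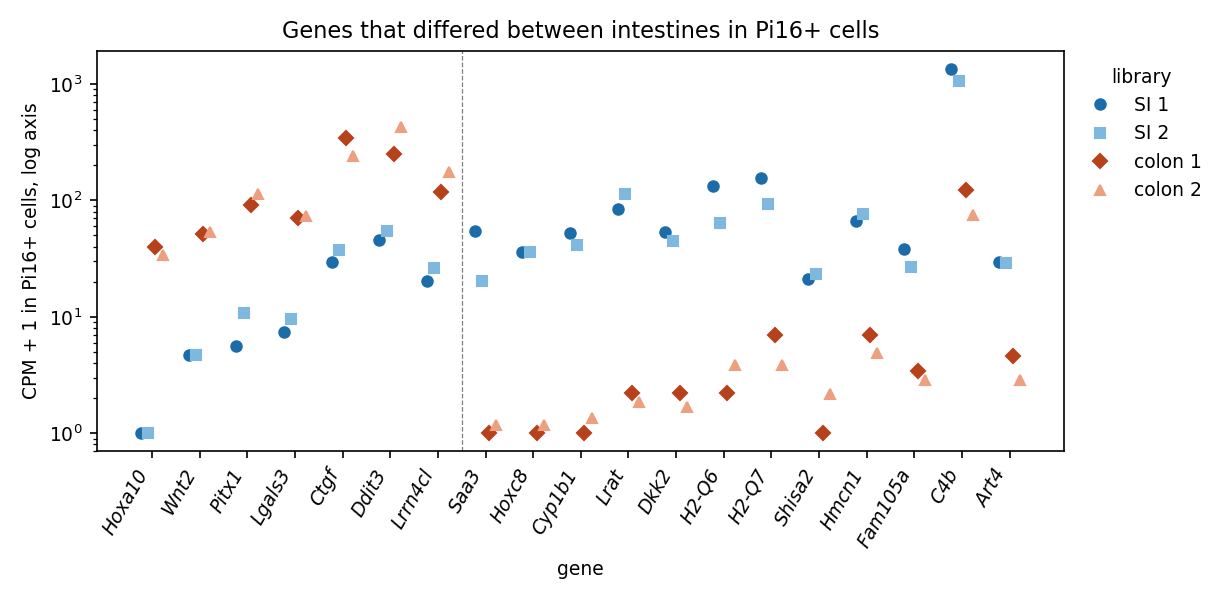
Level in CPM plus 1 on a log axis (y) in the Pi16+ FB of each of the 4 libraries for the 19 genes named by a rule on size (x axis), higher in colon to the left of the dashed line and lower to the right. The libraries of the 2 intestines do not overlap for any of the 19 genes, and Hoxa10 is at 0 CPM in both small intestinal libraries. The genes were picked as called with 1 direction in the same-numbered pairs, so the lack of overlap is no further support.

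For many genes the difference between intestines in the chosen cells was not that of the other Col1a2+ cells. The difference of the differences passed for 576 of 12799 genes (4.5%), 272 (2.13%) above 0 and 304 (2.38%) below (edgeR quasi-likelihood interaction term with library as a block, Benjamini-Hochberg adjusted p under 0.05). These counts include genes of the rule that chose the cells. Without the rule genes, 270 of 12790 terms were above 0 and 303 below. Leaving out the 4 libraries in turn gave 321, 305, 442 and 367 genes. Il33 stood at 137, 142, 24.8 and 32.7 CPM in the other cells (log2 fold change -2.34) and stood at 172, 263, 201 and 189 CPM in the chosen cells (-0.23 ± 0.30), an interaction of 2.09 ± 0.18 (adjusted p = 4.45e-27). C3 had an interaction of 1.86 ± 0.21 (adjusted p = 1.26e-15), Ccl2 of 1.88 ± 0.20 (adjusted p = 4.78e-18) and Cd55 of 1.22 ± 0.20 (adjusted p = 1.27e-07). In each of these genes the ratio of chosen to other cells was wider in both colonic libraries than in both small intestinal ones. Of 25 Pi16+ FB genes tested, 9 had a term above 0 and 2, Ly6c1 and Procr, below.

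Hoxb genes followed the same pattern. Of 29 Hox genes tested, 6 passed, all above 0 and all of the Hoxb cluster (Hoxb2 to Hoxb7). Hoxb2 stood at 15.7, 21.0, 45.8 and 22.2 CPM in the chosen cells and at 41.6, 28.4, 8.48 and 5.42 CPM in the others (interaction 2.98 ± 0.29, adjusted p = 2.6e-22). Its level in the chosen cells was therefore not lower in colon, as it was in the others. Ebf1 had an interaction of 1.59 ± 0.19 (adjusted p = 5.19e-15), with levels in the other cells between 47.2 and 94.6 CPM in every library. These patterns were not shown to be particular to Pi16+ FB. Against the Ackr4+Grem1+ cells, 0 of 22 Hox genes passed, and the interactions were -0.03 ± 0.35 for Hoxb2, -0.25 ± 0.24 for Il33, -0.04 ± 0.19 for C3, 0.86 ± 0.64 for Ccl2, 0.15 ± 0.17 for Ebf1 and -0.18 ± 0.17 for Cd55, none of them called (adjusted p of 0.938 or more by the same edgeR test).

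Terms below 0 included genes of the wider LP fibroblast pool. Adamdec1 stood at 1171, 1291, 172 and 279 CPM in the chosen cells and at 5030.3, 4678, 4708 and 3143 CPM in the others (interaction -2.11 ± 0.22, adjusted p = 1.29e-18). The neighbouring ion channel genes Tmem176a and Tmem176b, whose reads may not be separable, had interactions of -2.71 ± 0.21 and -2.58 ± 0.21. In the other cells the differences between intestines were -0.40, -0.46 and -0.37 on the log2 scale for these 3 genes, against -2.52, -3.16 and -2.97 in the chosen cells. The other cells mix FB subsets, smooth muscle cells and pericytes, with smooth muscle genes summing to 4700.0, 1412, 9366 and 3781 CPM, so a change in their makeup and a change within cells cannot be told apart. Against the Ackr4+Grem1+ cells, 74 of 9792 genes (0.756%) passed, 11 (0.112%) above 0 and 63 (0.643%) below, and of the Pi16+ FB list only Ly6c1 and Igfbp6 passed, both below 0. Adamdec1 did not pass there (-0.58 ± 0.18, adjusted p = 0.179 by edgeR), while Tmem176a and Tmem176b did (-0.82 ± 0.19 and -0.79 ± 0.18). Leaving out a library gave 36, 45, 187 and 138 genes.

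**Figure D5:**
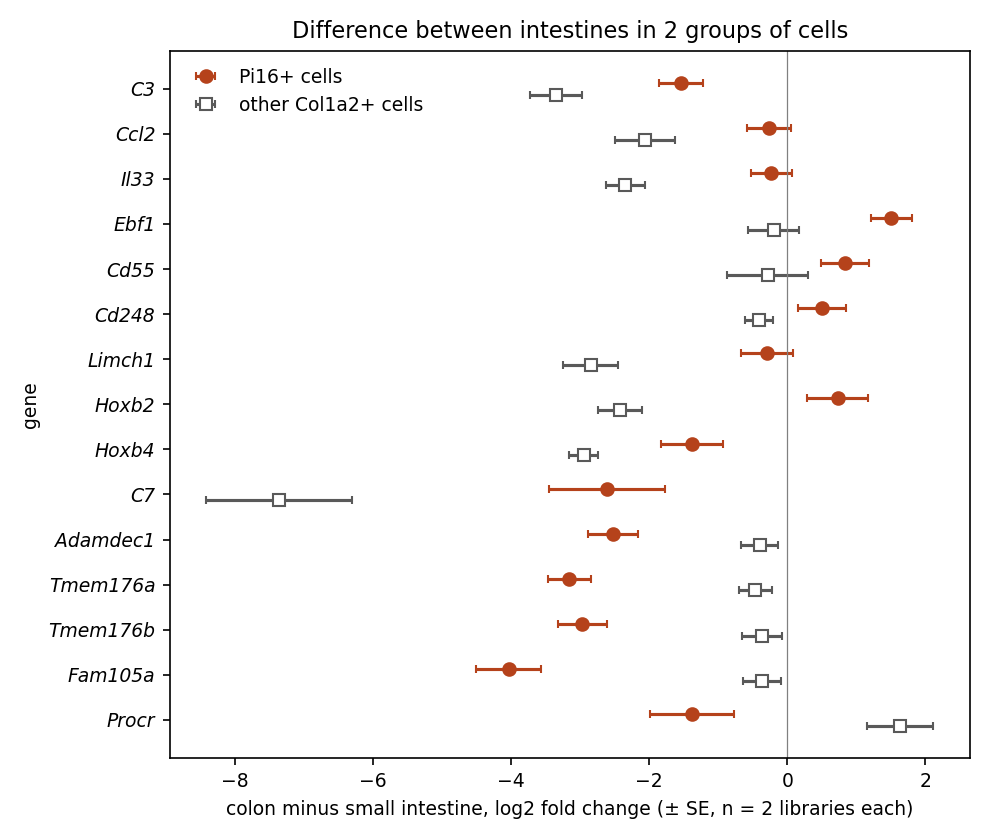
Difference between colon and small intestine as log2 fold change ± SE (x axis, n = 2 libraries each) for 15 genes (y axis) in Pi16+ FB (filled) and in the other Col1a2+ cells (open). The genes were picked after their values were seen, among those with an adjusted interaction p under 0.05. Il33 lies at -0.23 in Pi16+ FB and at -2.34 in the other cells, and Adamdec1 at -2.52 and -0.40.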

How the data were processed

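Reads were mapped by the authors to mm10 in Cell Ranger (3.0.2 for replicate 1 and 3.1.0 for replicate 2, per the file headers). The deposited tables hold UMI counts, not normalized, of 28692 gene rows by barcode. Both a 3′ and a 5′ kit are named in the labels, and the kit of each library is not given in the sources used here. A kit difference could move single genes.

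Members and gene lists were chosen with earlier results of these data known. Barcodes under 500 genes or 1000 UMIs, or over 10% mitochondrial UMIs, were left out. UMIs were summed per library and tested in edgeR 4.0.16 (R 4.3.3; TMM, filterByExpr, robust glmQLFit and glmQLFTest) over all genes, after a test on simulated data. DESeq2 1.42.0 was an alternative. Doublets were kept and scored with scrublet in scanpy 1.11.5. Its automatic threshold marked 1 cell in small intestine replicate 2, so the highest scores up to 0.8% per 1000 cells were used, chosen after seeing the data. Up to 12 called genes per direction were named between intestines, given 20 UMIs in every library of the higher intestine and 1 direction in the same-numbered pairs, for levels the 15 highest and 8 lowest ratios, for interactions 5 per direction, and from the lists. The 2-fold rule for levels (mean of at least 10 CPM) was set after the files were seen. Intervals cover counting error only. Results for some genes are not reported here. Positions are those of GENCODE on GRCm38.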

Additional observations from a re-analysis of the deposited data

Results flagged for a closer look

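Each result here was singled out because the difference between intestines in Pi16+ FB differed from that in a second group of cells by a test of the difference itself (edgeR interaction term, Benjamini-Hochberg adjusted p under 0.05). This held for 576 genes against the other Col1a2+ cells and for 74 genes against the Pi16-negative Ackr4+Grem1+ cells. The 576 include genes of the rule that chose the cells. Outside the rule, 270 terms were above 0 and 303 below.

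Against the other Col1a2+ cells, the largest log2 terms above 0 with at least 20 UMIs in the chosen cells were those of Mki67 (9.33), Osr2 (8.84), Dio2 (5.28), Adamts15 (5.21) and Islr2 (4.62). Mki67, a proliferation gene, had 0 UMIs in 3 of the 4 sums of chosen cells and 32 in colon replicate 2, so its term rests on that library and is no bound on the fold. Osr2 had 0 UMIs in the small intestinal chosen cells and stood at 20.5 and 42.5 CPM in the colonic ones. The largest terms below 0 were those of Sele (-4.45), Stmn2 (-4.38), Fam105a (-3.57), H2-Ab1 (-3.22) and Pla2g7 (-3.14). Fam105a stood at 36.9, 25.9, 2.41 and 1.86 CPM in the chosen cells and at 45.3, 32.6, 38.3 and 26 CPM in the others.

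Against the Ackr4+Grem1+ cells, the largest terms above 0 were those of Zcchc5 (3.44), Aldh1a3 (2.24), Ptx3 (2.14), Dner (1.81) and Galnt16 (1.77). DESeq2 called no term above 0. The largest below 0 were those of Cdh13 (-3.32), Shisa2 (-3.23), Chst1 (-3.16), Tspan7 (-2.69) and Galnt15 (-2.48). Where a gene had 0 UMIs in an intestine, the fitted term is no bound.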

How the results depend on the processing

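The share of Pi16+ FB differed between intestines by 1.94 percentage points. Leaving out 1 library gave -1.10 to 4.98, reversed when small intestine replicate 2 (-0.614) or colon replicate 2 (-1.10) was left out. The tissue count of 37 became 14 without doublets, 131 with DESeq2, 262 with no low-count filter and 13 to 136 with a library left out, and 13 and 8 of the 37 were shared with the calls without doublets and without colon replicate 2. With the replicate number as a block it was 254 (84 higher, 170 lower), with 5 complement genes called in place of 1, 11 interferon response genes in place of 2, 8 Hox genes in place of 4, 4 vitamin A genes in place of 2 and 3 chemokine genes in place of 0. Deviations of same-numbered samples correlated at 0.608 over 8960 genes, and same-numbered libraries share a Cell Ranger version and a like number of barcodes (2061 and 2590 against 16795 and 13537). The study speaks of sorting subsets of both intestines out of the same mice with its antibody panels, without naming these libraries. No label names a shared animal or day and there are only 2 pairs, so the fit without the block was kept. The interaction count of 576 became 352 in cells with at least 3000 UMIs, 161 with DESeq2 and 305 to 442 with a library left out (321, 305, 442 and 367 in the order of libraries). That of 74 became 122 with no filter and 36 to 187 with a library left out (36, 45, 187 and 138). With DESeq2 it was 13, 0 above 0 and 13 below, and 7214 of 9792 genes had no adjusted p. With a pseudocount of 1 CPM, 150 genes were higher and 440 lower than in other Col1a2+ cells, and leaving out a library gave 78 to 110 and 189 to 334. The interaction of Stmn2 (-4.38) lay between -4.63 and 1.84 with a library left out, and reversed without small intestine replicate 1 (1.84, adjusted p = 1 by edgeR). The cause of these changes was not tested. Of the values of named genes under the alternatives, 233 kept and 32 lost their call between intestines. For interactions with other cells 68 kept it, 19 lost it and 1 reversed, and for those with Ackr4+Grem1+ cells 55 kept it and 25 lost it. Sele lost its call when small intestine replicate 1 or colon replicate 2 was left out (edgeR adjusted p = 0.53 and 0.916). The depth of 98 and 110 cells in the replicate 1 libraries limits genes of few UMIs.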
